A study of Arvicanthis niloticus with 5 samples.

Results

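The aldehyde dehydrogenases of the Nile rat eye were described from RNA sequencing of eye tissue of Arvicanthis niloticus, a day-active African rodent. The 10 genes Aldh1a1, Aldh1a2, Aldh1a3, Aldh1b1, Aldh1l1, Aldh2, Aldh3a1, Aldh3a2, Aldh7a1 and Aldh9a1 were looked for by symbol among the mouse, rat and human names that the authors paired with the transcripts of their table, and 8 of the 10 were found, out of 13982 genes with a symbol. The labels list 5 wild-type eye samples, numbered 1, 3, 5, 7 and 9, in 1 group with no treatment named, and the library was pooled from 5 rats. The deposited table holds 1 value per transcript for the whole series, so there was no replicate, no comparison between groups and no p-value. Each level is in FPKM, the number of fragments for each kilobase of transcript and each 1000000 mapped fragments, which is scaled for length and can be set side by side between genes, and the brackets hold 95% intervals for counting error alone.

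Aldehyde dehydrogenases oxidise aldehydes to carboxylic acids with NAD or NADP as cofactor. In the eye they are known for several jobs. They clear the reactive aldehydes that light and lipid peroxidation produce. They make retinoic acid from retinaldehyde. In the mammalian cornea, ALDH3A1 and, depending on the species, ALDH1A1 are so abundant that they are called corneal crystallins, by analogy with the proteins of the lens. Aldh1a1 is also known from the lens and from part of the retina in mice, so its RNA in eye tissue is not a measure of the cornea alone.

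Aldh1a1 was by far the most abundant of the measured members, at 367 FPKM [363 to 370.1]. This level rested on 47821 estimated fragments over a single transcript of 2007 nt. The other 7 measured members lay between 2.89 and 19.8 FPKM, with a median of 15.4 FPKM. Aldh1a1 was 18.5-fold [17.8 to 19.2] above the next member, Aldh9a1. It ranked 52nd among the 13982 named genes and lay above 99.6% of them. Among the 11334 named genes whose transcripts were all at least 1000 nt long, a class that leaves out short pieces of mRNA, it ranked 23rd. In the plot of level and fragment count, Aldh1a1 stands apart on both axes.

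**Figure D1:**
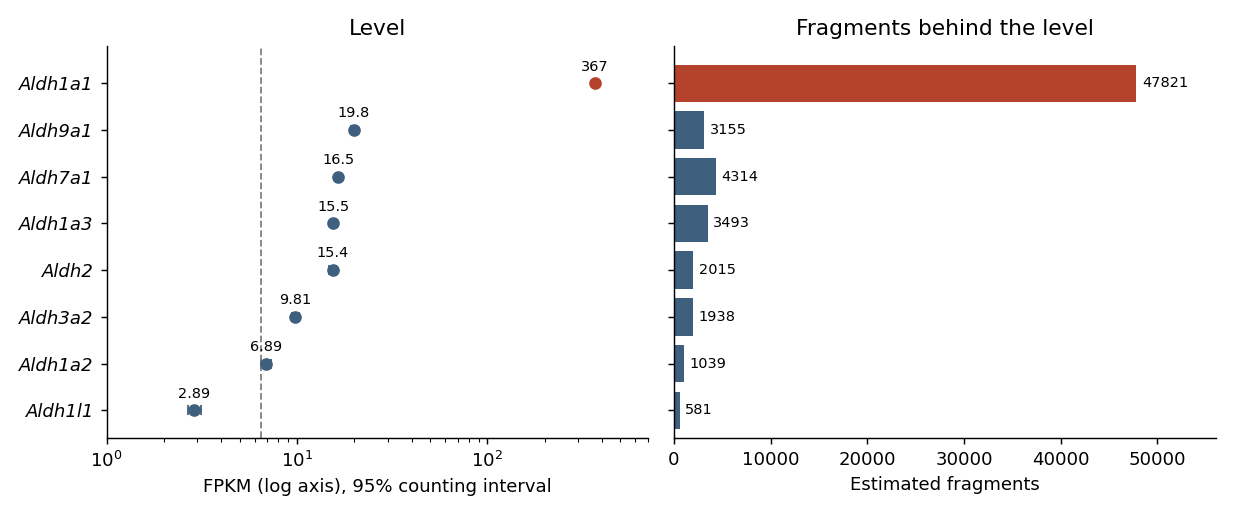
Levels of the 8 measured aldehyde dehydrogenases in FPKM (left, log axis, bars are 95% counting intervals, dashed line is the median of all named genes at 6.50 FPKM) and the estimated fragments behind them (right) in the 1 pool. Aldh1a1 is at 367 FPKM, and the other 7 genes lie between 2.89 and 19.8 FPKM.

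The corneal crystallin isoforms were set against the other members. Of this pair, only Aldh1a1 could be measured. No transcript carried the symbol Aldh3a1, so the level of Aldh3a1 was not analysed here and is not shown to be low. In the RefSeq gene table of the Nile rat, Aldh3a1 is the direct neighbour of Aldh3a2, which was measured. Aldh1a1 alone stood at 367 FPKM, against 87.0 FPKM for the sum of the other 7 measured members. This is a 4.22-fold difference [4.14 to 4.29], or a log2 ratio of 2.08 [2.05 to 2.10]. Aldh1a1 thus held 80.8% [80.6 to 81.1] of the FPKM of the 8 genes. In estimated fragments, a measure without division by length, the balance was 47821 for Aldh1a1 and 16534 for the other 7, or 74.3% for Aldh1a1. The direction was the same on both scales. Any level of Aldh3a1 would raise the corneal side of this ratio. Aldh1b1, which belongs to the other side, also had no transcript with its symbol, and any level of it would raise that side.

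All 8 measured members reached 1 FPKM, a level passed by 93.2% of all named genes, a share that leaves detection alone uninformative about these genes. At 10 FPKM the count was 5 of 8, against 34.0% of all named genes. The median of the 8 was 15.5 FPKM, against 6.50 FPKM over all named genes, and 7 of the 8 lay above that median. With 8 genes, these counts are a description. The histogram of all named genes shows 6 of the members within the body of the distribution above its median, Aldh1l1 below it and Aldh1a1 in its upper tail.

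**Figure D2:**
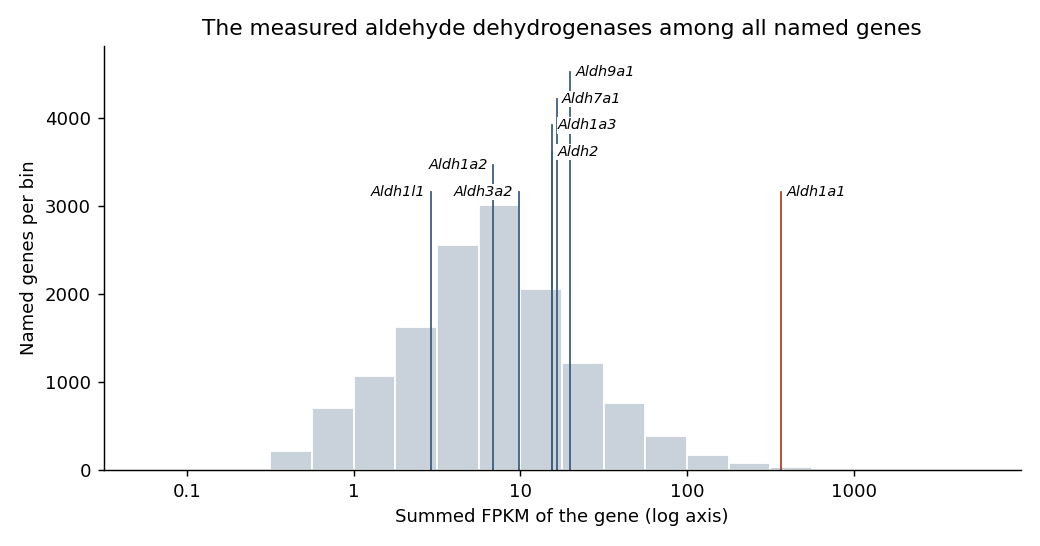
Number of named genes per bin of summed FPKM (log axis, grey bars, 13982 genes) with the level of each of the 8 measured aldehyde dehydrogenases as a vertical line. Aldh1a1 lies above 99.6% of named genes and Aldh1l1 above 24.0%.

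Retinoic acid is made by the retinaldehyde dehydrogenases Aldh1a1, Aldh1a2 and Aldh1a3. In the embryonic mouse eye, Aldh1a1 marks the dorsal and Aldh1a3 the ventral retina. Aldh1a2 is known in mice from tissue around the retina, such as the choroid. In the Nile rat pool Aldh1a3 was at 15.5 FPKM [15.0 to 16.1] on 3493 fragments and a transcript of 3459 nt. Aldh1a2 was at 6.89 FPKM [6.48 to 7.32] on 1039 fragments and a transcript of 2321 nt. All 3 genes were thus above the median named gene, Aldh1a2 by 1.06-fold only. Of the summed FPKM of the 3 enzymes, Aldh1a1 held 94.2% [94.1 to 94.4], Aldh1a3 held 3.99% [3.86 to 4.13] and Aldh1a2 held 1.77% [1.67 to 1.88]. In this bulk eye RNA a gene confined to few cells and a gene with little RNA per cell cannot be told apart, so the low shares do not show low levels where these genes are used.

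The general detoxifying enzymes were of middle rank. Aldh2, the mitochondrial enzyme that oxidises acetaldehyde from ethanol and lipid aldehydes, was at 15.4 FPKM [14.8 to 16.1] on 2015 fragments. Its level did not differ from that of Aldh1a3 beyond counting error, with a ratio of Aldh1a3 to Aldh2 of 1.01-fold [0.953 to 1.06]. Aldh3a2, the fatty aldehyde dehydrogenase of the endoplasmic reticulum, whose loss causes Sjögren-Larsson syndrome in humans, was at 9.81 FPKM [9.38 to 10.3] on 1937.5 fragments, just under the 10 FPKM line. Aldh2 exceeded Aldh3a2 by 1.57-fold [1.48 to 1.67]. Aldh1b1, a mitochondrial relative of Aldh2, had no transcript with its symbol and was not analysed here.

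The remaining members each serve a metabolic pathway. Aldh9a1, which oxidises a trimethylated aldehyde on the way to carnitine, was at 19.8 FPKM [19.2 to 20.5] on 3155 fragments and was the second most abundant. Aldh7a1, the lysine breakdown enzyme whose loss causes pyridoxine-dependent epilepsy in humans, was at 16.5 FPKM [16.0 to 17.0] on 4314 fragments and a transcript of 4016 nt, the longest of the 8. In estimated fragments Aldh7a1 was above Aldh9a1, whose transcript had 2447 nt. Aldh1l1, the 10-formyltetrahydrofolate dehydrogenase of folate metabolism and a common marker of astrocytes in the mouse brain, was the lowest member at 2.89 FPKM [2.66 to 3.14] on 581 fragments. It lay above only 24.0% of named genes and was the single measured member below their median.

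From high to low the order was Aldh1a1, Aldh9a1, Aldh7a1, Aldh1a3, Aldh2, Aldh3a2, Aldh1a2 and Aldh1l1. Of the 28 pairs among the 8 genes, 27 differed by more than counting error, the exception being Aldh1a3 and Aldh2. The step between Aldh7a1 and Aldh1a3 was small, at 1.06-fold [1.02 to 1.11], and that between Aldh9a1 and Aldh7a1 was 1.20-fold [1.15 to 1.26]. These intervals hold no variation between animals, so steps of this size are not shown to hold from 1 rat to the next. Below Aldh2 the steps were larger, with Aldh3a2 1.42-fold [1.32 to 1.54] above Aldh1a2 and Aldh1a2 2.38-fold [2.15 to 2.64] above Aldh1l1.

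The identity of the transcripts bears on these levels. Each of the 8 members was carried by exactly 1 transcript, of 2007 to 4016 nt, while the median transcript with a symbol was 2156 nt long and the median of all transcripts was 388 nt. No level was therefore a sum over pieces. The symbol stood in all 3 species columns for Aldh1a1, Aldh1a2, Aldh3a2 and Aldh9a1, in the mouse and human columns for Aldh1a3 and Aldh2, and in the human column alone for Aldh1l1 and Aldh7a1. No member transcript carried a second symbol, and all 8 had an Ensembl ortholog in each of the 3 species that no other Nile rat transcript shared. The fragment count was whole, within 1e-06 of a fragment, for 3 members, Aldh1a2, Aldh1a3 and Aldh1l1. It was fractional for the other 5, Aldh1a1 included, so some of their fragments were divided with other transcripts. The RefSeq gene table of the Nile rat held the symbol of every member except Aldh1a1. No transcript carried the symbol Aldh1a7, and whether the level of Aldh1a1 holds fragments of such a gene was not tested.

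Other genes of the same superfamily lay in the range of the lower members. Of 10 further aldehyde dehydrogenase symbols, 6 were measured and all 6 reached 1 FPKM, as 93.2% of all named genes did. The median of the 6 was 8.98 FPKM. The highest were Aldh16a1 at 11.9 FPKM, Aldh6a1, the methylmalonate semialdehyde dehydrogenase of valine breakdown, at 11.5 FPKM, and Aldh4a1, of proline breakdown, at 9.44 FPKM. The Aldh16a1 transcript also carried another symbol in a species column. The lowest was Aldh3b2 at 3.44 FPKM. Aldh18a1, which makes the precursor of proline, was at 8.53 FPKM, and Aldh5a1, which completes the breakdown of GABA, at 7.16 FPKM. With these 6 added, Aldh1a1 held 72.5% of the FPKM of the 14 measured aldehyde dehydrogenases and was 2.64-fold above the other 13 together. Their median without Aldh1a1 was 9.81 FPKM.

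Upstream and downstream of the retinaldehyde dehydrogenases, 16 of 18 symbols of the retinoic acid pathway were measured. All 16 reached 1 FPKM and 11 reached 10 FPKM, levels passed by 93.2% and 34.0% of all named genes. Their median was 12.1 FPKM, and none was as high as Aldh1a1. Rdh10, which oxidises retinol to the retinaldehyde that these enzymes use, was at 27.1 FPKM, and Aldh1a1 was 13.5-fold [13.1 to 13.9] above it. Dhrs3, which reduces retinaldehyde back to retinol, was at 10.6 FPKM. Rdh10 lay above Aldh1a3 and Aldh1a2, and Dhrs3 between them.

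The enzymes that break down retinoic acid were low. Cyp26a1 was at 4.91 FPKM [4.51 to 5.34] and Cyp26b1, the lowest gene of the pathway list, at 1.41 FPKM [1.19 to 1.65], while no transcript carried the symbol Cyp26c1. Aldh1a1 exceeded Cyp26a1 by 74.7-fold [68.7 to 81.2]. Aldh1a3 and Aldh1a2 were above both Cyp26 genes as well. Among proteins that bind retinoic acid, Fabp5, a fatty acid binding protein, was at 42.0 FPKM and Crabp2 at 2.82 FPKM. Crabp1 summed to 12.4 FPKM over a pair of transcripts named from different species, which is too high if these are pieces of 1 mRNA. The retinoid receptors lay between 3.75 FPKM for Rarb and 20.7 FPKM for Rxrb. The plot of the pathway by role shows Aldh1a1 well to the right of every other gene drawn, with Fabp5 next.

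**Figure D3:**
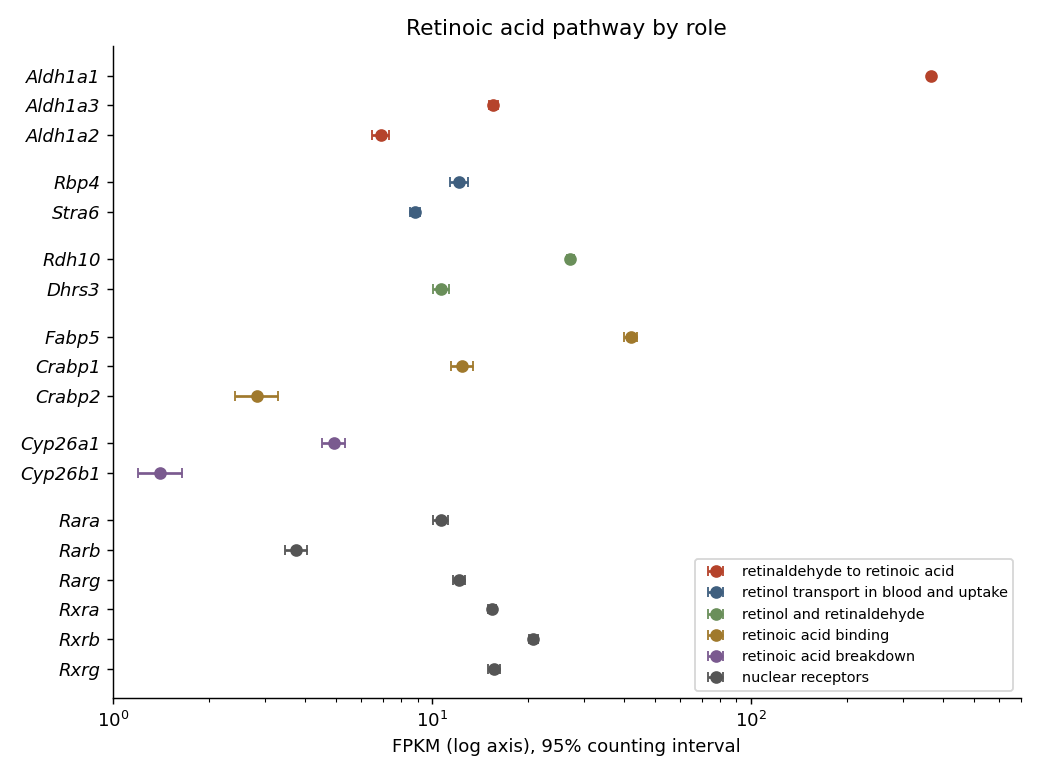
FPKM (log axis, bars are 95% counting intervals) of the retinaldehyde dehydrogenases and of measured genes of the pathway, grouped by role, in the 1 pool. Of the genes drawn Aldh1a1 (367 FPKM) is highest, Fabp5 (42.0 FPKM) is next, and the breakdown enzymes Cyp26a1 (4.91 FPKM) and Cyp26b1 (1.41 FPKM) are among the lowest.

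Enzymes of other families that handle aldehydes lay, by their median, between Aldh1a1 and the other members. Their list had 14 symbols, of which 10 were measured. The median of the 10 was 51.9 FPKM, against 15.4 FPKM for the 7 members other than Aldh1a1. Of the 10 genes, 7 were above 10 FPKM, against 34.0% of all named genes. The list holds 3 measured alcohol dehydrogenases, and the median of the other 7 genes, a split chosen after seeing the data, was 57.4 FPKM. The aldehyde reductase Akr1a1 was highest at 161 FPKM, followed by Gsta4, the glutathione transferase for 4-hydroxynonenal, at 106 FPKM and by Glo1, which clears methylglyoxal, at 86.8 FPKM. The lowest was Akr1b8 at 5.92 FPKM. Aldh1a1 was 2.28-fold [2.23 to 2.32] above Akr1a1, while Aldh9a1, the next member, was below Akr1a1, Gsta4 and Glo1. The Akr1a1 transcript also carried another symbol in a species column. Named by the first species column with a symbol, 8 genes of this list were counted at 1 FPKM, against 10 by any column. The alcohol dehydrogenases were Adh7 at 56.1 FPKM, Adh5 at 47.8 FPKM and Adh1 at 11.8 FPKM. Adh7 and Adh5 were thus above Aldh2, and Adh1 was below it.

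The lower members were set beside the pathways to which they belong. All 14 enzymes of folate one-carbon metabolism, to which Aldh1l1 belongs, were measured, with a median of 4.91 FPKM. They were led by Gldc of the glycine cleavage system at 19.3 FPKM, Mthfd1 at 16.9 FPKM and Shmt2 at 15.3 FPKM, and the methionine synthase Mtr was lowest at 1.26 FPKM. Aldh1l1 was above Mtr and below the other 13. Of the genes of lysine breakdown and carnitine synthesis, 5 of 6 were measured, with a median of 6.09 FPKM. Aldh7a1 was 3.16-fold [2.96 to 3.37] above Aass, the first enzyme of the saccharopine route, which was at 5.24 FPKM. Aldh9a1 was 3.26-fold [3.02 to 3.52] above Tmlhe, the first enzyme of carnitine synthesis, at 6.09 FPKM. The highest of these 5 genes were Gcdh at 8.99 FPKM, Aadat at 7.56 FPKM and Tmlhe. The level of Aadat was summed over transcripts of 1743 and 1748 nt, which is too high if both stand for the same mRNA. Its place in this order and the median of the 5 depend on that sum. Bbox1, the last enzyme of carnitine synthesis, had a single 283 nt transcript and a level of 0.544 FPKM [0.261 to 1.00].

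**Figure D4:**
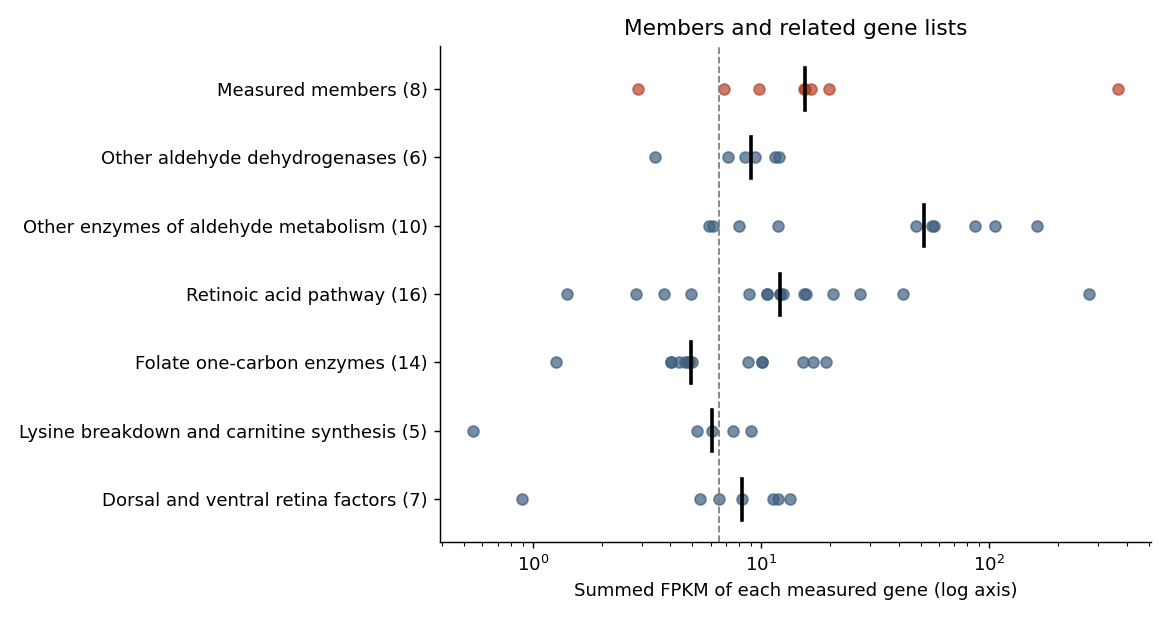
Summed FPKM (log axis) of each of the 8 measured members and of each measured gene of 6 related lists, with the number of genes in brackets, a black bar at each median and a dashed line at the median of all named genes (6.50 FPKM). Aldh1a1 is the highest point in the plot, and the median of other enzymes of aldehyde metabolism (51.9 FPKM) is above that of the members (15.5 FPKM).

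Factors that pattern the dorsal and ventral retina, the axis along which Aldh1a1 and Aldh1a3 differ in mice, were all lower than Aldh1a3 where measured. A transcript carried 7 of the 10 symbols of this list, and the median of the 7 was 8.20 FPKM. Efnb1 was at 13.3 FPKM, the dorsal factor Tbx2 at 11.9 FPKM and the ventral factor Vax2 at 11.2 FPKM on a transcript of 739 nt. The dorsal factor Tbx5 was lowest, on a transcript of 431 nt at 0.893 FPKM [0.578 to 1.32]. The labels name the tissue as eye with no separation of dorsal and ventral retina, so the pool does not place the members along this axis.

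RNA of markers of several tissues in which Aldh1a1 is known was present in the pool. From which tissue the RNA of each marker came cannot be told in 1 pool of eye RNA. The part of each tissue in the level of Aldh1a1 was not tested. Of the corneal epithelial markers 8 of 11 were measured, while no transcript carried the symbol Krt5, Krt15 or Krt3. All 8 reached 1 FPKM, as 93.2% of all named genes did. They were led by Tkt at 220.4 FPKM, Pax6 at 92.3 FPKM and Krt12, the keratin of corneal epithelium, at 91.0 FPKM. The lowest were Trp63 at 2.52 FPKM and Slurp1 at 1.92 FPKM. Aldh1a1 was 4.03-fold [3.92 to 4.15] above Krt12, which was named in mouse alone on a transcript of 847 nt, and 1.66-fold [1.63 to 1.70] above Tkt. Tkt was the sum of transcripts of 565 and 598 nt of which the first was named Tkt in mouse and the second in rat, which is too high if these are pieces of 1 mRNA. Of the stromal markers all 6 were measured, led by the proteoglycan Dcn at 603 FPKM, Ptgds at 307 FPKM and Angptl7 at 91.2 FPKM, with Thbs4 lowest at 13.4 FPKM. Aldh1a1 was 6.65-fold [6.50 to 6.81] above Kera, a proteoglycan of corneal keratocytes, at 55.1 FPKM. Lens markers had a median of 931 FPKM, against 41.5 FPKM for the epithelial and 76.7 FPKM for the stromal markers of the cornea. All 7 were measured, led by Grifin at 1528 FPKM, Cryaa at 1263 FPKM and Lgsn at 1063 FPKM, with Mip lowest at 194 FPKM. Of these 7 genes 4 were above Aldh1a1. The level of Cryaa was likewise summed, over transcripts of 249 and 676 nt. The Lgsn transcript also carried another symbol in a species column.

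Markers of glia and pigment epithelium spanned the level of Aldh1a1 as well. All 7 markers of Müller glia and astrocytes were measured, led by Rlbp1 at 432 FPKM, S100b at 85.9 FPKM and Slc1a3 at 79.8 FPKM, with Slc7a10 lowest at 6.54 FPKM. The Slc7a10 transcript also carried another symbol in a species column. Rlbp1 was the single gene of this list above Aldh1a1, by 1.18-fold [1.16 to 1.19]. Aldh1l1, in contrast, was 27.6-fold [25.4 to 29.9] below the glial glutamate transporter Slc1a3 and 2.47-fold [2.24 to 2.72] below Gfap at 7.14 FPKM. It was lower than all 7 markers of this list, and other glial genes were not compared. Of the retinal pigment epithelium markers 5 of 6 were measured, with Rlbp1, which both lists hold, highest, Rpe65 at 238 FPKM and Rgr at 128 FPKM below Aldh1a1 and Mertk lowest at 0.912 FPKM. Of 5 liver markers, a tissue rich in aldehyde dehydrogenases, Cyp2e1 alone was measured, at 2.45 FPKM, and Alb, Apoa1, Serpina1a and Tat had no transcript with their symbol.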

How the data were processed

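RNA of Nile rat eyes was sequenced, and the labels state that the library was pooled from 5 rats. Per the submitters' processing notes, Bowtie was used. Nothing in the sources used here gives its version, the assembly and counting methods or a genome build, and no coordinates are printed. The FPKM values deposited by the authors are estimated counts per kilobase per 1000000 of the 64967222 mapped fragments stated in the file header, and rebuilding them from count and length gave the deposited value for all 8 member transcripts within a relative tolerance of 1e-05. The estimated fragment counts deposited by the authors are not normalized and need not be whole. All 124439 transcripts were read. A transcript was a member where any of its mouse, rat or human names was the symbol, without regard to case. Background levels used 15454 transcripts of 13982 genes, named in the order mouse, rat, human, and summed per gene.

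Gamma intervals after Fay and Feuer (95%) were computed for levels, and Poisson intervals by the delta method for ratios. In simulated fragments of the 8 members, 95.0% of the level intervals and 94.6% of the ratio intervals held the true value. They cover counting error only, and PCR copies are not independent molecules. A count of 0 on 1000 nt allows up to 3 fragments, or 0.0462 FPKM. No test was run. The members and lists were chosen with earlier results of these data known. All members are named, with the 3 highest and the lowest gene of each list and 5 set genes of retinoic acid metabolism. A gene under this rule is not reported here one by one but enters counts and medians. Other genes were picked for mention once their values were known. Names of 9 of the 10 members matched a RefSeq Nile rat gene (assembly mArvNil1.pat.X), the exception being Aldh1a1. Genes with a pattern like a member could not be sought in 1 pool. Computations ran in Python 3.11.15 with SciPy 1.17.1, pandas 2.3.3 and NumPy 2.4.6, and figures were drawn with Matplotlib 3.10.9.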

Additional observations from a re-analysis of the deposited data

Results flagged for a closer look

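Transcripts outside all comparisons reached the level of the most abundant member. Of the 108985 transcripts without a gene symbol, 284 were at or above the 367 FPKM of Aldh1a1, and 9 of these were at least 1000 nt long. Of the 9, 2 had an ortholog identifier without a symbol, at 3161 and 1063 FPKM. Which genes these are was not determined, and whether any of them is Aldh3a1 or Aldh1b1 was not tested.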

How the results depend on the processing

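Of 133 values recomputed under alternatives, 116 stayed within counting error of the value given or, for counts, within 1.5 times of it, 17 moved and none reversed. Taking the highest transcript, a length-weighted mean, transcripts of at least 500 nt, the first species column or transcripts with no other symbol gave the same member values, since each member has 1 transcript, of 2007 to 4016 nt, with no other symbol. With estimated fragments in place of FPKM, the log2 ratio of Aldh1a1 to the other 7 was 1.53, its share of the members 74.3%, and the shares of Aldh1a1, Aldh1a3 and Aldh1a2 among the retinaldehyde dehydrogenases 91.3%, 6.67% and 1.98%, and 5 of the 8 members kept their place in the order. Against all other measured aldehyde dehydrogenases, an alternative chosen after seeing the data, the log2 ratio was 1.40. Rescaling to a sum of 1000000 lowered the median to 11.3 and Aldh1a1 to 268, with the ratios unchanged. At a threshold of 20 FPKM, 1 member was counted in place of 5. The ratio with Aldh3a1 alone and the values without each sample were not run, because Aldh3a1 has no transcript with its symbol and the table has 1 column. Levels, median and threshold counts were not recomputed in fragments, whose unit differs. No paired analysis was possible because the labels hold 1 group and the table no column per sample. Precision was lowest for Aldh1l1, with 581 fragments.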
